A study of Rattus norvegicus with 44 samples.

Results

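The infarct core and the cortex around it (periinfarct) were compared 3 d after permanent occlusion of the middle cerebral artery, with 4 arrays of each area out of 44 arrays in the series. The arrays were chosen by their labels alone. Adult Sprague-Dawley rats had a branch of the right artery ligated through a craniotomy while both common carotid arteries were closed for a limited time, so the cortex of the other hemisphere was also underperfused for that period. Each array carried RNA pooled from 3 rats, and the 4 pools, numbered 9 to 12, gave both a core and a periinfarct array, so each core array has a periinfarct array from the same animals. Levels in contralateral cortex of the same pools, in ipsilateral cortex of sham-operated rats at 3 d and in ipsilateral cortex of healthy rats (4 arrays each) are given for reference. Core and periinfarct arrays at 24 h come from other animals. The dissected tissue was not sorted, so fewer cells of a type and less RNA per cell cannot be told apart.

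In the core of a permanent cortical infarct blood flow is lost and neurons die within hours, whereas the surrounding cortex keeps some flow from neighbouring vessels. During the following days resident microglia become activated, and monocytes, neutrophils and later lymphocytes enter from the blood. Phagocytes then take up dead cells and myelin, which loads their lysosomes with protein and lipid, while astrocytes close the border of the lesion.

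Between 62.5% and 73.5% of the spots on the 8 arrays were well above background (median 68.9%), and no spot was saturated. Both arrays of pool 11 stood apart from their groups. Core pool 11 correlated more closely with the periinfarct arrays (mean r = 0.969 across probes) than with the other core arrays (0.952), and periinfarct pool 11 correlated most closely with contralateral cortex (0.985, against 0.953 with the other periinfarct arrays). On the first principal component of 16 arrays, the core arrays of pools 9, 10 and 12 lay at 147, 124 and 133 and that of pool 11 at 52.9. The periinfarct arrays of pools 9, 10 and 12 lay at 63.3, 93.5 and 25.5, and periinfarct pool 11 at −60.5, beside the contralateral arrays. Core lay above periinfarct within each of the 4 pools. Core at 3 d was also the most variable of the 11 groups, with a median SD over probes of 0.458 (log2), against 0.361 in periinfarct at 3 d and 0.224 to 0.453 in the others. Values without pool 11 are therefore given beside the main results.

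**Figure D1:**
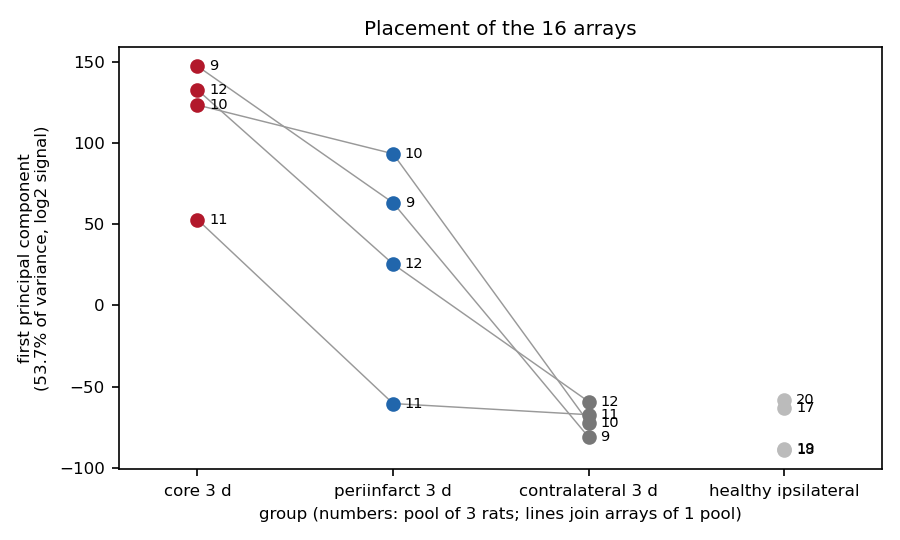
First principal component (y axis, 53.7% of the variance of the log2 signal) of 16 arrays by group (x axis), with the pool number beside each point and lines joining arrays of 1 pool. Core lies above periinfarct in each pool, but core pool 11 (52.9) lies within the range of the periinfarct arrays, and periinfarct pool 11 (−60.5) beside contralateral cortex.

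Of 30514 probes tested, 1230 (4.03%) differed between core and periinfarct at an adjusted p below 0.05 and at least 2-fold. More were higher in core (949 probes, 3.11%) than lower (281 probes, 0.921%). Taking the probe with the highest mean signal for each of 12095 genes, 553 genes (4.57%) were higher and 75 (0.62%) lower in core. The median log2 difference over all genes was −0.06. Of the 949 probes called higher, 916 were higher in core in all 4 pools, and 239 of the 281 called lower were lower in all 4. The fitted difference is the mean of these same pool differences, so this agreement was partly set by the selection. The 4 core and 4 periinfarct arrays did not overlap for 1152 probes (3.78%), of which 249 were also called (154 higher and 95 lower). Among all non-overlapping probes 528 were higher and 624 lower in core, 4129 probes (13.5%) were higher and 4788 (15.7%) lower in all 4 pools, and at an adjusted p below 0.05 with no fold minimum 2097 (6.87%) were higher and 2496 (8.18%) lower. The excess of calls on the higher side thus held for differences of at least 2-fold and not for the smaller ones.

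These counts rest on a spread estimated from all 44 arrays and on few arrays. In a limma fit of the 8 arrays alone no probe was called (3387 had an unadjusted p below 0.05), nor with the pool as a block in those 8 arrays (5427). With all 44 arrays and the pool as a replicate block 1442 probes were called, 1092 of them higher. Without core pool 9 the count was 266, without core pool 10 it was 620, and without core pool 11 it was 3091. Without periinfarct pool 10 it was 2151 and without periinfarct pool 11 it was 111. Leaving out both arrays of pool 11 left 1335 probes, of which 761 were higher and 574 lower, and leaving out both of pool 9 left 407. Calls that survived each of the 8 single omissions numbered 100, for 55 genes higher and 3 genes lower in core. Those 3, named after their values were seen, were Slc25a18 (log2 difference −1.46), a mitochondrial glutamate carrier, Kctd16 (−1.31), an auxiliary subunit of the GABA-B receptor, and Tenm2 (−1.27), a synaptic adhesion protein.

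**Figure D2:**
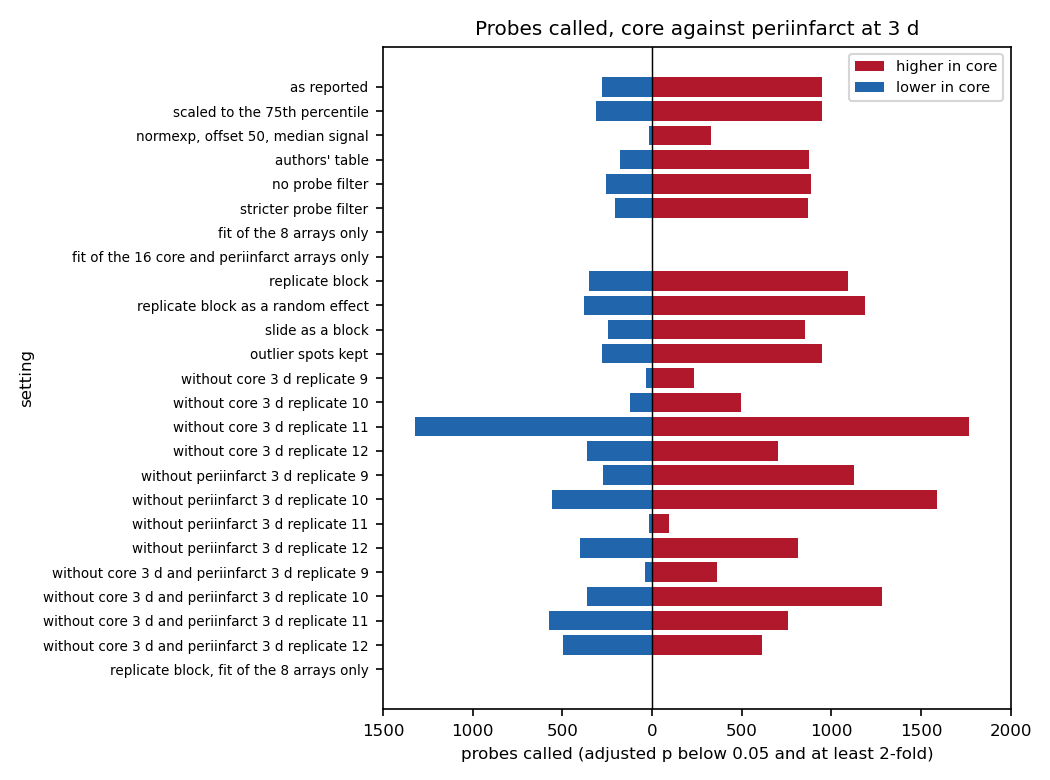
Number of probes called (x axis) higher in core (red) or lower in core (blue) under each setting (y axis). The 1230 calls fall to 266 without core pool 9 and 111 without periinfarct pool 11, rise to 3091 without core pool 11, and no probe is called in the fits of only the 8 or 16 ischemic arrays.

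Of 22 genes of macrophages and phagocytes tested, 15 were called higher in core and none lower, with a median log2 difference of 1.73. Over all genes tested, 4.57% were called higher in core and 0.62% lower, the shares to set beside this and the following list counts. Each pool had a positive median: over the 22 genes it was 1.58, 0.77, 3.40 and 1.41 in pools 9, 10, 11 and 12. Without both arrays of pool 11 the median was 1.18 and 9 genes were called, without periinfarct pool 11 alone 3 were, and without core pool 9 alone 5 were. The mean log2 signal of the list was 9.31 to 10.55 on the core arrays, 8.38 to 9.50 on periinfarct arrays of pools 9, 10 and 12, and 5.88 in periinfarct pool 11, which lies within the 5.22 to 5.94 of contralateral cortex.

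Hk3, a hexokinase of myeloid cells, had log2 signals of 11.10, 11.02, 9.44 and 11.60 in core (pools 9 to 12) and 8.78, 9.83, 3.76 and 7.58 in periinfarct. Only core pool 11 fell below a periinfarct array, and the difference of 3.30 ± 0.79 (SE) on the log2 scale was called (9.88-fold, adjusted p = 0.00744, limma) but lost without periinfarct pool 11. Spp1, which encodes osteopontin, a secreted protein of lesion phagocytes, was at 16.65, 16.56, 16.25 and 16.06 in core and at 15.46, 15.75, 8.10 and 14.73 in periinfarct. The groups did not overlap, but 1 periinfarct array carried most of the difference: it was 2.87 ± 1.00 (adjusted p = 0.0473) with all arrays and 1.11, not called, without pool 11, and it was also lost without core pool 9, 10 or 12. With the replicate block its adjusted p was 0.0593, and with the slide as a block it was not called either. Cst7, a cystatin that inhibits lysosomal cathepsins, was at 7.80, 7.43, 6.26 and 6.37 in core and at 5.04, 5.32, 1.76 and 4.27 in periinfarct, and its call (adjusted p = 0.0212) was lost without core pool 9 or 10 or periinfarct pool 11. Trem1, a receptor that amplifies myeloid activation, was at 7.87, 7.06, 6.34 and 5.84 against 5.30, 5.57, 1.11 and 3.68. Its difference of 2.86 ± 0.68 (adjusted p = 0.00748) remained called at 2.07 without pool 11, but not without core pool 9 or periinfarct pool 11. At the other end of the list Cd163, the haemoglobin scavenger receptor of perivascular macrophages, differed by 0.29 ± 0.52 and was not called (adjusted p = 0.781).

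Further myeloid genes stood among the largest differences. C5ar1, the receptor for the complement fragment C5a (probe A_42_P572521), had log2 signals of 11.66, 11.65, 9.81 and 10.99 in core and 9.14, 9.76, 6.43 and 8.58 in periinfarct, against 5.87 ± 0.06 (SD, n = 4) in healthy cortex. No core array fell to the level of a periinfarct array, the difference was 2.55 ± 0.43 (5.86-fold, adjusted p = 0.00127), and the call held with any 1 array left out and without pool 11. Cebpe, a transcription factor of granulocyte and macrophage maturation, was at 6.59, 6.76, 5.44 and 6.36 in core and 4.38, 5.19, 1.60 and 3.14 in periinfarct, with a call that held under the same omissions (2.71 ± 0.54, adjusted p = 0.00329). Acod1, the enzyme that makes itaconate in activated macrophages, was well above background on 3 of 4 core arrays and 1 of 4 periinfarct arrays. It was at 4.06, 4.21, 3.39 and 5.17 against 0.83, 3.30, 0.83 and 0.99 (2.72 ± 0.51, adjusted p = 0.00233). No healthy array was well above background for Acod1. Cd300c2 and Igsf7 l1, which encode immunoglobulin-domain receptors of the CD300 region, differed by 2.86 ± 0.68 and 2.80 ± 0.63 (adjusted p = 0.00712 and 0.00572), and both calls were lost without core pool 9 or periinfarct pool 11. Stap1, an adaptor protein of B cells and microglia, differed by 2.53 ± 0.52 (adjusted p = 0.0036) and was well above background on 1 of 4 periinfarct arrays, with a call lost without periinfarct pool 11.

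Markers of resident microglia showed smaller differences. Of 14 tested, 2 were called higher (4.57% of all genes were) and none lower (median log2 difference 0.58, and 0.10 without pool 11, where none was called). The 2 were Tyrobp, a signalling adaptor, and Trem2, its lipid-sensing receptor partner. Tyrobp was at 15.45, 15.38, 14.57 and 15.41 in core and 14.47, 14.85, 12.09 and 14.36 in periinfarct (1.26 ± 0.31, adjusted p = 0.00843). Trem2 was at 14.94, 14.73, 14.07 and 14.89 against 14.08, 14.38, 11.72 and 13.66 (1.20 ± 0.30, adjusted p = 0.00881). In both, core pool 11 lay among the periinfarct arrays, and both calls were lost without core pool 9 or periinfarct pool 11. Tmem119, a membrane protein used to mark resident microglia, differed by 0.12 ± 0.51 and Selplg, a selectin ligand, by −0.20 ± 0.30, with no call for either.

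**Figure D3:**
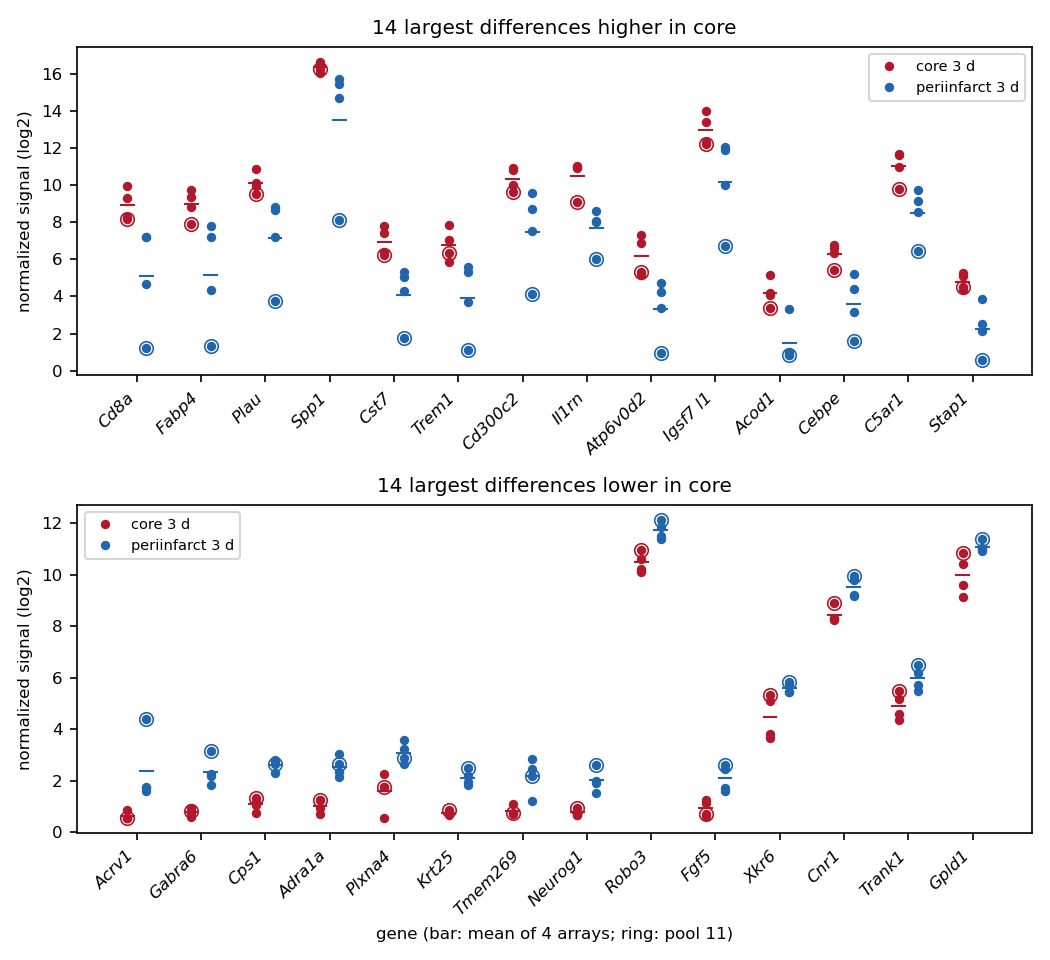
Normalized log2 signal (y axis) of the genes with the 14 largest differences in each direction (x axis) whose arrays did not overlap, for core (red) and periinfarct (blue) at 3 d, 4 arrays each, with bars at the mean and rings on pool 11. In the upper panel periinfarct pool 11 is the lowest array for each gene except Acod1, where periinfarct pools 9 and 11 are both at 0.83. In the lower panel 9 genes lie near the lowest signals on all core arrays.

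Lysosomal genes rose in part. Of 22 tested, 6 were called higher in core (4.57% of all genes were) and none lower. At any fold 12 were higher with an adjusted p below 0.05 (6.87% of all probes were). The median log2 difference was 0.66, or 0.48 without pool 11, where 3 were called. None was called without periinfarct pool 11 alone and 1 without core pool 9. Atp6v0d2, the subunit of the vacuolar proton pump that macrophages and osteoclasts use, had log2 signals of 6.89, 7.29, 5.32 and 5.14 in core and 4.25, 4.75, 0.93 and 3.37 in periinfarct. It was well above background on 3 of 4 periinfarct arrays. All core arrays were higher than all periinfarct arrays, and the difference of 2.84 ± 0.58 (adjusted p = 0.00371) was 2.32 and called without pool 11, but was not called without periinfarct pool 11 alone. Acp5, tartrate-resistant acid phosphatase, was at 12.08, 12.21, 10.87 and 11.56 against 10.78, 11.55, 8.53 and 10.21 (1.42 ± 0.34, adjusted p = 0.0075), with a call lost without core pool 9 or periinfarct pool 11. The widely used pump subunits were not called: Atp6v1a differed by −0.46 ± 0.28 and Atp6v1b2 by −0.19 ± 0.39 (adjusted p = 0.278 and 0.813).

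The promoters of lysosomal genes were searched for TCACGTGA, the palindromic core of the element bound by the MITF and TFE factors that drive lysosomal genes. In windows around the start (RefSeq, GRCr8), it was found in 0.867% of 27457 promoters, in 1.33% of those of genes tested, in 1.44% of the 416 promoters of genes called higher in core, in 1.75% of 57 for genes called lower, and in 3 of 16 lysosomal genes with a promoter in the table. The matches are shown with the element in capitals because the 3 genes that carry it were not among the called ones. Lamp1 (log2 difference 0.28), a lysosomal membrane protein, held it at 2 places, chr16:83075102-83075149 and chr16:83075075-83075122, minus strand. Ctsd (0.70), the protease cathepsin D, held it at chr1:206968822-206968852, minus strand, and Atp6v0d1 (−0.14), the widely used counterpart of Atp6v0d2, at chr19:50357274-50357321, minus strand.
Lamp1, first match: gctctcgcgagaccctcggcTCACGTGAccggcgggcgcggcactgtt
Lamp1, further match: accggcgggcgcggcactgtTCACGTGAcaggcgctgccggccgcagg
Ctsd: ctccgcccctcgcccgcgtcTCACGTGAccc
Atp6v0d1: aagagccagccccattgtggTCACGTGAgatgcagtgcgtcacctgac

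Of 16 genes of lipid uptake and efflux, 6 were called higher (4.57% of all genes were) and none lower. The median was 0.80, and 0.40 with 5 called without pool 11. Fabp4, a fatty acid-binding protein of macrophages and fat cells (probe A_43_P12786), was at 9.76, 9.34, 7.92 and 8.82 in core and 7.23, 7.80, 1.32 and 4.33 in periinfarct, against 1.60 ± 0.72 in healthy cortex. It was well above background on 3 of 4 periinfarct arrays. All core arrays were higher, and its difference of 3.79 ± 0.70 (adjusted p = 0.00215) was 2.86 without pool 11 and called under every single omission. Apoc1, a lipoprotein component, was at 13.98, 13.77, 12.64 and 13.77 in core and 12.19, 12.34, 9.71 and 10.48 in periinfarct. It was called likewise, with the smallest adjusted p among the genes given here (2.36 ± 0.33, 5.13-fold, adjusted p = 2.46e-04). Its neighbour Apoc2 (−0.30 ± 0.24) and the fatty acid-binding protein Fabp3 (−0.38 ± 0.18) were lower in core in all 4 pools without a call. Genes of cholesterol synthesis had no call. All 16 fitted differences were negative, with a median of −0.35, against −0.06 over all genes. At any fold 2 of the 16 had an adjusted p below 0.05, and 8.18% of all probes did so in this direction. Hmgcs1, which feeds the pathway, was the lowest (−0.64 ± 0.15, adjusted p = 0.00801), followed by the regulator Srebf2 (−0.58 ± 0.25, adjusted p = 0.116).

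Of 24 interleukin and TNF family genes, 11 were called higher (4.57% of all genes were) and none lower (median log2 difference 1.05). Without pool 11 the median was 0.86 with 5 called, and 1 was called without periinfarct pool 11 alone, 2 without core pool 9 and 5 with the slide as a block. Il1rn, the antagonist that blocks the interleukin-1 receptor (probe A_44_P462661), was at 11.03, 10.98, 9.12 and 10.95 in core and at 8.06, 8.61, 6.03 and 7.99 in periinfarct. All core arrays were higher, and its difference of 2.85 ± 0.51 (7.19-fold, adjusted p = 0.00181) held under every single omission and was 2.77 without pool 11. A further probe of Il1rn was also called (2.18). Il1rl1, the receptor for interleukin-33, was at 7.50, 7.03, 5.35 and 7.36 against 6.18, 7.06, 1.16 and 3.92, which overlap, and its call (2.23 ± 0.76, adjusted p = 0.0422) was lost without any of core pools 9, 10 and 12 or periinfarct pools 11 and 12. Its ligand gene Il33 differed by −0.05 ± 0.19, and the cytokine Lif by 0.02 ± 0.39.

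Of 32 chemokines and receptors, 1 was lower at any fold with an adjusted p below 0.05 (8.18% of all probes were). In the other direction 6 were called higher (4.57% of all genes were). The median was 0.93, and 0.79 with 5 called without pool 11. None was called without periinfarct pool 11 alone and 1 without core pool 9. Ccl7, which attracts monocytes, was at 10.69, 10.56, 9.38 and 10.80 in core and at 8.85, 9.31, 2.90 and 9.44 in periinfarct. Periinfarct pool 11 alone was near the healthy level (mean 2.66), and the call (2.73 ± 0.95, adjusted p = 0.0470) was lost without that array or any of core pools 9, 10 and 12. Ccl2, its close relative, had the same shape at 12.51, 12.41, 11.31 and 12.42 against 10.76, 11.62, 4.82 and 11.54, and was not called (2.48 ± 1.07, adjusted p = 0.111). Cx3cl1, the neuronal chemokine that restrains microglia, was lower in core in all 4 pools (−0.81 ± 0.20, adjusted p = 0.00894) but by less than 2-fold. Cxcl10, induced by interferon, differed by −0.58 ± 0.62.

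The interferon response did not separate the areas as a list: 2 of 19 genes were called higher (4.57% of all genes were). The median log2 difference was 0.01 (−0.17 without pool 11), and 9 of the fitted values were negative. The called genes were Psmb8 (1.12 ± 0.30, adjusted p = 0.0135) and Psmb9 (1.11 ± 0.31, adjusted p = 0.0154), subunits of the immunoproteasome. Psmb8 was at 11.06, 10.23, 10.11 and 10.08 in core and 9.89, 10.07, 7.71 and 9.32 in periinfarct, just without overlap. Mx1 and Mx2, antiviral GTPases, differed by −0.56 ± 0.57 and −0.83 ± 0.37, and without pool 11 Mx2 was called lower in core (−1.26). Both Psmb calls were lost without core pool 9 or periinfarct pool 11, and that of Psmb9 also without core pool 12.

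Of 16 complement genes 4 were called higher (4.57% of all genes were) and none lower. Without pool 11 there were also 4 calls, and 1 without periinfarct pool 11 alone. The median was 0.46 (0.18 without pool 11). C3ar1, the receptor for fragment C3a, was at 8.00, 7.57, 6.42 and 7.56 in core and 6.16, 6.66, 4.34 and 6.08 in periinfarct (1.58 ± 0.34, adjusted p = 0.00473), a call lost without periinfarct pool 11. C5ar1, given above, was also called, so both receptors for the released fragments were higher in core. The calls were not confined to these receptors, and all 16 fitted differences were positive. At the low end of the list Cfb and C4a, components of the cascade, differed by 0.03 ± 0.30 and 0.06 ± 0.23.

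All 11 genes of MHC class II presentation had positive differences and 5 were called higher (4.57% of all genes were), with a median of 1.36. Without pool 11 the median was 0.93 with 4 called, but no call was left without periinfarct pool 11 alone, without core pool 9 alone or when slides entered the fit as a block. RT1-Da, a class II chain, was at 12.01, 12.05, 10.49 and 11.79 in core and 10.60, 11.46, 7.34 and 10.40 in periinfarct. RT1-Db1, its partner chain, was at 10.91, 10.90, 9.54 and 11.18 against 9.53, 10.56, 6.46 and 9.50. The differences were 1.63 ± 0.49 and 1.61 ± 0.50 (adjusted p = 0.0230 and 0.0255), and both calls were lost without core pool 9, 10 or 12 or periinfarct pool 11. The costimulatory gene Cd80 did not overlap between groups but was not called (0.86 ± 0.34, adjusted p = 0.0839), and RT1-DOa was not either (0.96 ± 0.44).

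Cd8a, which encodes the alpha chain of the CD8 co-receptor, had the largest fitted difference of all genes (probe A_44_P448431), but was well above background on 3 of 4 periinfarct arrays. It was at 9.97, 9.31, 8.16 and 8.29 in core, at 7.22, 7.23, 1.20 and 4.69 in periinfarct, and at 0.66 ± 0.03 in healthy cortex, where no array was well above background. Each core array exceeded each periinfarct array, and the difference of 3.85 ± 0.69 (adjusted p = 0.00185) held under every single omission and was 2.81 without pool 11. Cd8b, the beta chain, was at 10.72, 10.67, 8.87 and 9.82 against 8.26, 9.08, 4.97 and 6.88 (2.72 ± 0.52, 6.61-fold, adjusted p = 0.0025), likewise under every single omission. These were the only 2 of 15 genes of T, NK and B lymphocytes called, where 4.57% of all genes were called higher. The list median was 0.64 with and without pool 11. Cd4, the co-receptor of helper T cells, was not well above background on any of the 8 arrays, and Zap70, a kinase of the T cell receptor, differed by −0.12 ± 0.17. CD8 is also carried by NK cells, dendritic cells and some macrophages of the rat, and which cells carried these transcripts was not tested.

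Among 11 neutrophil genes, 2 were called higher (4.57% of all genes were). The median was 1.26, and 1.43 with 3 called without pool 11. Fcnb, a ficolin of myeloid granules, was at 11.37, 11.41, 10.63 and 11.60 in core and 9.96, 11.15, 4.42 and 8.98 in periinfarct, with overlap (2.62 ± 0.78, adjusted p = 0.0216), and its call was lost without core pool 9, 10 or 12 or periinfarct pool 11. Ncf1, a subunit of the phagocyte oxidase, was at 12.35, 12.41, 10.93 and 11.92 against 10.82, 11.20, 6.86 and 9.93 (2.20 ± 0.47, adjusted p = 0.00428) and was called under every single omission. The granule genes Elane, well above background on 1 of the 8 arrays, and Np4 differed by 0.14 ± 0.51 and −0.02 ± 0.46.

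All 27 cell division genes tested were higher in core in each of the 4 pools (13.5% of all probes were). Of these, 19 were called higher (4.57% of all genes were) and none lower (median log2 difference 1.54). The pool medians were 1.25, 0.39, 3.18 and 1.04, so the size was set largely by pool 11: without it the median was 0.87 with 5 called, and without periinfarct pool 11 or core pool 9 alone none was called. A fit with slides as a block called 10 of them. The mean log2 signal of the list was 8.04 to 9.37 in core, 7.96 to 8.48 in periinfarct pools 9, 10 and 12, and 4.93 in periinfarct pool 11, within the 4.72 to 5.02 of contralateral cortex. Aurkb, a kinase of chromosome segregation, showed this most clearly, at 7.46, 6.77, 6.25 and 6.69 in core and 6.21, 6.27, 1.24 and 6.04 in periinfarct. It was not called (1.85 ± 0.79, adjusted p = 0.107), and nor was the spindle checkpoint kinase Bub1b (1.81 ± 0.66, adjusted p = 0.0560). Tpx2, a spindle protein, was called (1.02 ± 0.27, adjusted p = 0.0110) except without core pool 9, 10 or 12 or periinfarct pool 11, and Pcna, the clamp of DNA replication, had an adjusted p of 0.0132 at a difference of 0.70 ± 0.19, less than 2-fold.

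The plasminogen system and metalloproteinases had 5 of 20 genes called higher (4.57% of all genes were) and none lower. The median was 0.73, and 0.48 with 3 called without pool 11. None was called without periinfarct pool 11 alone and 1 without core pool 9. Plau, urokinase, which activates plasminogen, was at 10.87, 10.14, 9.55 and 9.96 in core and 8.68, 8.85, 3.77 and 7.22 in periinfarct. All core arrays were higher (3.00 ± 0.65, 7.99-fold, adjusted p = 0.00472), and the difference was 2.07 and called without pool 11, but not called without periinfarct pool 11 alone. Mmp7, matrilysin, was at 8.77, 8.01, 7.63 and 8.31 against 7.04, 8.10, 1.49 and 5.58 and was not called (2.63 ± 0.95, adjusted p = 0.0556), though it was with the replicate block (adjusted p = 0.0250). Tissue plasminogen activator, Plat, differed by −0.24 ± 0.36 and Mmp3, stromelysin, by −0.38 ± 0.60.

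Extracellular matrix genes were positive in 21 of 22 cases (median 0.73, against −0.06 over all genes). Only Fn1 and Fbn1 were called, where 4.57% of all genes were called higher. Without pool 11 the median was 0.78 with 4 called, without core pool 11 alone 8 were called, and without periinfarct pool 11 alone none was. Fn1, fibronectin, was at 13.86, 13.84, 12.35 and 13.55 in core and 12.42, 12.74, 10.95 and 12.00 in periinfarct (1.37 ± 0.29, adjusted p = 0.00423), and 1.36 without pool 11. Fbn1, fibrillin, was at 11.72, 11.13, 9.68 and 10.70 against 10.11, 10.20, 8.64 and 9.29 (1.25 ± 0.32, adjusted p = 0.0107). Core was higher within each pool for both, although core pool 11 lay within the periinfarct range. A further probe of each gene was called as well. The call of Fn1 was lost without periinfarct pool 11 and that of Fbn1 also without core pool 9. Col6a1 and Col5a1, collagen chains, differed by −0.50 ± 0.28 and 0.04 ± 0.30.

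The promoters of 4 genes that were called higher and carry TGACTCA, the site of the AP-1 factors (either strand, in capitals), are shown as examples. They are the 4 largest differences among genes of the lists and of the named set with a match in the 250 bases before the start, and 3 of them (Mmp12, macrophage elastase, Gpnmb, a glycoprotein of lipid-laden phagocytes, and Plaur, the urokinase receptor) were named after their values were seen. The log2 differences were 2.71 for Cebpe, 2.47 for Mmp12, 2.34 for Gpnmb and 2.30 for Plaur. The share of promoters with this motif was 4.81% among genes called higher, 3.51% among genes called lower 3.72% among all genes tested and 4.53% among all promoters, so the shares differed little. GAGGAAGT, the site of the myeloid factor PU.1, was held by 5.05%, 1.75%, 2.6% and 2.44% of the same sets. The windows lie in GRCr8 at chr15:32141477-32141726 (minus strand, Cebpe), chr8:12866402-12866651 (plus, Mmp12), chr4:79340878-79341127 (plus, Gpnmb) and chr1:89181113-89181362 (plus, Plaur).
Cebpe: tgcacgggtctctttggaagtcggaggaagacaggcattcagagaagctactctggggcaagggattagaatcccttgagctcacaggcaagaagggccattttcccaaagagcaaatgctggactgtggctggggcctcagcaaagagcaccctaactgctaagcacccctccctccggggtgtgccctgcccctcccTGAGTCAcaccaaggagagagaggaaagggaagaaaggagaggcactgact
Mmp12: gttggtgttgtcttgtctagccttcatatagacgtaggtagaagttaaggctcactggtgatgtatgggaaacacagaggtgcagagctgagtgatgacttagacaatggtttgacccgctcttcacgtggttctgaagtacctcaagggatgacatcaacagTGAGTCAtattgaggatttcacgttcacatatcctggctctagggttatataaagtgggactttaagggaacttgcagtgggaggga
Gpnmb: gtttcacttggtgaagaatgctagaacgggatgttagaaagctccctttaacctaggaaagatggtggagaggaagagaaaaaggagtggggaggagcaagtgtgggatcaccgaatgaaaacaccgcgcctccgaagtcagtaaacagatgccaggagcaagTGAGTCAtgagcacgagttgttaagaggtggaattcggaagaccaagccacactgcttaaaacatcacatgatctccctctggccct
Plaur: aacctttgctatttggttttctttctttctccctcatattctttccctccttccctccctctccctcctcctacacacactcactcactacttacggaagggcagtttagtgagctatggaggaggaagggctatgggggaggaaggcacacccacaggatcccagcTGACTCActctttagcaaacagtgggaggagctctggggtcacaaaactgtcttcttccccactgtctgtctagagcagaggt

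Most neuronal genes were lower in core, but by less than 2-fold for most. All 19 tested genes of pyramidal neurons and excitatory synapses had negative differences, with a median of −0.71 (log2). None was called at 2-fold, whereas 12 had an adjusted p below 0.05 at any fold (8.18% of all probes did so in this direction), and 15 were lower in core in all 4 pools (15.7% of all probes). The pool medians were −1.16, −0.61, −0.34 and −0.58. Without pool 11 the median was −0.78 and 5 genes were called lower, and without core pool 11 alone 10 were. The mean log2 signal of the list was 8.09, 8.23, 9.38 and 8.47 in core, 9.20, 8.96, 9.71 and 9.12 in periinfarct and 9.79 to 9.94 in healthy cortex. Core pool 11 thus lay among the periinfarct arrays and periinfarct pool 11 just below the healthy range. Grin2a, an NMDA receptor subunit, was at 6.38, 6.79, 8.19 and 6.99 in core and 7.88, 7.42, 8.87 and 7.99 in periinfarct (−0.95 ± 0.26, adjusted p = 0.0142). Camk2a, the kinase of excitatory synapses, was at 7.57, 7.62, 9.40 and 8.86 against 9.40, 9.05, 10.10 and 8.74 (−0.96 ± 0.35, adjusted p = 0.0546). A further probe of Camk2a was called (−1.65), and both genes were called without pool 11.

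The other neuronal lists were alike. All 20 genes of presynaptic vesicle release were negative (median −0.65, and −0.72 without pool 11). At any fold 12 had an adjusted p below 0.05 (8.18% of all probes did so in this direction). Rph3a, rabphilin, was the one called, where 0.62% of all genes were called lower. It was at 2.65, 3.16, 4.79 and 2.05 in core and 4.72, 3.68, 5.47 and 3.72 in periinfarct (−1.23 ± 0.35, adjusted p = 0.0177). It was well above background on 2 of 4 core arrays, and its call was lost without core pool 9, 10 or 12 or periinfarct pool 11. Syn2, a synapsin, was at 9.71, 10.26, 10.82 and 10.36 against 11.13, 11.18, 11.32 and 10.81 (−0.82 ± 0.20, adjusted p = 0.00779). All 13 cytoskeletal genes were negative as well (median −0.56, and −0.60 without pool 11), led by Dcx (−0.74 ± 0.23, adjusted p = 0.0244) and Mapt, which encodes tau (−0.70 ± 0.20, adjusted p = 0.0203), with none called.

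Inhibitory interneurons had 3 of 16 genes called lower (0.62% of all genes were) and a median of −0.68. Without pool 11 these were 4 and −0.78. Without core pool 11 alone 7 were called, and none without periinfarct pool 11 alone. Scgn, secretagogin, a calcium sensor, was at 3.56, 4.42, 5.25 and 1.43 in core and 5.16, 5.21, 5.08 and 5.03 in periinfarct. Core pool 11 was as high as periinfarct (−1.45 ± 0.43, adjusted p = 0.0222), and the call was lost without core pool 9 or 12 or periinfarct pool 11. Crh, a neuropeptide, was at 4.63, 4.72, 6.38 and 4.75 against 5.95, 5.55, 7.10 and 6.53 (−1.16 ± 0.32, adjusted p = 0.0136), lower in core in all 4 pools, with a call lost without core pool 9 or 10 or periinfarct pool 11. Dlx1, a transcription factor of these cells, and the peptide gene Tac1 differed by 0.09 ± 0.27 and −0.15 ± 0.25. Among markers of cortical layers 1 of 10 was called lower (0.62% of all genes were). Rasgrf2, of upper layers, was at 4.68, 4.44, 6.46 and 5.63 in core and 5.97, 5.99, 7.11 and 6.27 in periinfarct (−1.04 ± 0.33, adjusted p = 0.0310). Its call was lost without core pool 9 or 10 or periinfarct pool 11 or 12. Activity-induced transcription factors and their partners, 15 in number, had no call (median −0.43, from −0.99 for Egr4 to 0.97 for Egr2).

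Cnr1, the cannabinoid receptor of axon terminals (probe A_43_P11563), had the smallest adjusted p among the named genes lower in core. It was at 8.23, 8.31, 8.91 and 8.29 in core and 9.16, 9.23, 9.95 and 9.81 in periinfarct, against 9.26 ± 0.23 in healthy cortex. The groups did not overlap (−1.10 ± 0.18, adjusted p = 0.0011), the value was −1.12 without pool 11, and the call was lost without periinfarct pool 11 alone and with the slide as a block. A further probe differed by −0.73 without a call. Robo3, an axon guidance receptor, was at 10.13, 10.24, 10.98 and 10.63 against 11.85, 11.52, 12.14 and 11.42 (−1.24 ± 0.27, adjusted p = 0.0044), a further probe was called too (−1.13), and the call was lost without periinfarct pool 11. Gpld1, a phospholipase that releases anchored proteins, was at 9.14, 9.61, 10.85 and 10.43 against 11.03, 10.94, 11.39 and 11.01 (−1.08 ± 0.27, adjusted p = 0.00843). Xkr6, of the XK family of membrane proteins, and Trank1 had differences of −1.14 ± 0.28 and −1.08 ± 0.26 (adjusted p = 0.00826 and 0.00801). The calls of Gpld1, Xkr6 and Trank1 were lost without core pool 9 or 10 or periinfarct pool 11, and those of Xkr6 and Trank1 also with the slide as a block.

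The remaining 9 of the 14 largest decreases were at the edge of detection. Acrv1, Gabra6, Cps1, Adra1a, Plxna4, Krt25, Tmem269, Neurog1 and Fgf5 were not well above background on any core array. Of these, Plxna4, a semaphorin receptor, was above background on each of the periinfarct arrays, at 3.58, 3.25, 2.87 and 2.63 against 0.55, 1.76, 1.77 and 2.24 in core, and was at least 2.71-fold lower in core (adjusted p = 0.00802). Adra1a, an adrenergic receptor, Gabra6, a GABA receptor subunit, Cps1, a urea cycle enzyme, and Acrv1, a sperm protein, were well above background on 1 periinfarct array each. They were called lower (adjusted p = 0.0153, 0.0286, 0.0324 and 0.0484), but most of their arrays in both areas were at background, so no fold is given. Krt25, Tmem269, Neurog1 and Fgf5 were not well above background on any of the 8 arrays. Each of these 9 calls was lost in at least 1 single omission (without core pool 9 for all 9). With the slide as a block the calls of Acrv1, Gabra6, Cps1 and Neurog1 were lost too. Over all probes called lower, 110 of 281 (39.1%) were well above background on all 8 arrays and another 110 on no core array. Of the 949 called higher, 676 (71.2%) were well above background on all 8 arrays, and of all probes tested 65.8%. With background correction by normexp and an offset of 50, 19 probes were called lower and 330 higher, so the share of calls that were higher was 94.6% rather than 77.2%.

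Astrocyte genes were mostly lower in core by less than 2-fold, with 14 fitted differences negative and 4 positive. The pool medians were −0.59, −0.51, −0.24 and −0.62 in pools 9 to 12. Of 18 tested, 1 was called higher (Cd44), near the 4.57% of all genes called higher, and none lower. In the lower direction 7 had an adjusted p below 0.05 at any fold (8.18% of all probes did). The median was −0.38 (−0.54 with none called without pool 11). Cd44, a hyaluronan receptor that myeloid cells also carry, was at 11.88, 11.82, 10.38 and 12.02 in core and 10.35, 11.10, 6.85 and 10.65 in periinfarct (1.79 ± 0.57, adjusted p = 0.0313), lost without core pool 9, 10 or 12 or periinfarct pool 11. Vim, vimentin, was higher in core in all 4 pools without a call (1.01 ± 0.39, adjusted p = 0.0749). The gap junction gene Gjb6 differed by −0.74 ± 0.24 (adjusted p = 0.0328), short of 2-fold. Oligodendrocyte and myelin genes had no call among 17 with all arrays (median −0.07, from −0.63 for Fa2h to 0.70 for Pdgfra). Without pool 11 the median was −0.29 and Fa2h was called lower (−1.32), although it was well above background on none of the core arrays.

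No gene of the vessel wall was called with all arrays: 18 endothelial genes had a median of 0.29, with Eng, a co-receptor of TGF-beta, highest (0.99 ± 0.30, adjusted p = 0.0251), and 11 genes of pericytes and smooth muscle had a median of 0.37. Without core pool 11 alone, 1 endothelial and 3 pericyte genes were called higher, and without pool 11, 1 pericyte gene was. Meningeal and choroid plexus genes, 10 in number, had a median of 0.03 and no call, but their mean log2 signal was 8.26 in core pool 12, against 6.45 to 6.84 in the other core arrays and 6.42 to 7.13 in periinfarct. Striatal genes, 9 in number, had a median of −0.12 and no call. The 4 genes of red blood cells had no call, and their mean was 12.46 in core pool 10 and 11.09 in periinfarct pool 10, against 8.06 to 10.15 on the other 6 arrays. The part of blood, meninges or choroid plexus in the results was not tested. Of 10 skeletal muscle genes, Tnnt3 was called higher (1.61 ± 0.53, adjusted p = 0.0367) and Tnnc2 lower (−1.51 ± 0.36, adjusted p = 0.00712). Over all genes 4.57% were called higher and 0.62% lower. Tnnc2, a troponin subunit, was at 6.86, 7.25, 9.37 and 8.47 in core, 9.22, 9.15, 11.02 and 8.59 in periinfarct and 11.41 on average in healthy cortex. Both calls were lost without core pool 9 or periinfarct pool 11, and that of Tnnt3 also without core pool 10 or 12 or periinfarct pool 12.

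Stress responses differed little apart from Hmox1. Haem oxygenase, its product, breaks down haem, and the gene was at 13.01, 13.26, 11.27 and 12.09 in core and 10.97, 12.49, 8.22 and 10.37 in periinfarct. The difference of 1.89 ± 0.53 (3.72-fold, adjusted p = 0.0152) was called, except without core pool 9 or 10 or periinfarct pool 11, and was 1.51 and called without pool 11. It was the one call among 17 genes of heat shock and oxidative stress (median 0.15), near the 4.57% of all genes called higher. Atf3, a stress-induced transcription factor measured on 3 of the 4 core arrays, differed by 1.87 ± 0.68 (adjusted p = 0.0585). Of 14 genes of hypoxia and glycolysis only Hk3, given above, was called, where 4.57% of all genes were called higher. Vegfa, the vascular growth factor, differed by −0.46 ± 0.27 and Slc2a3, the neuronal glucose transporter, by −0.75 ± 0.33.

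**Figure D4:**
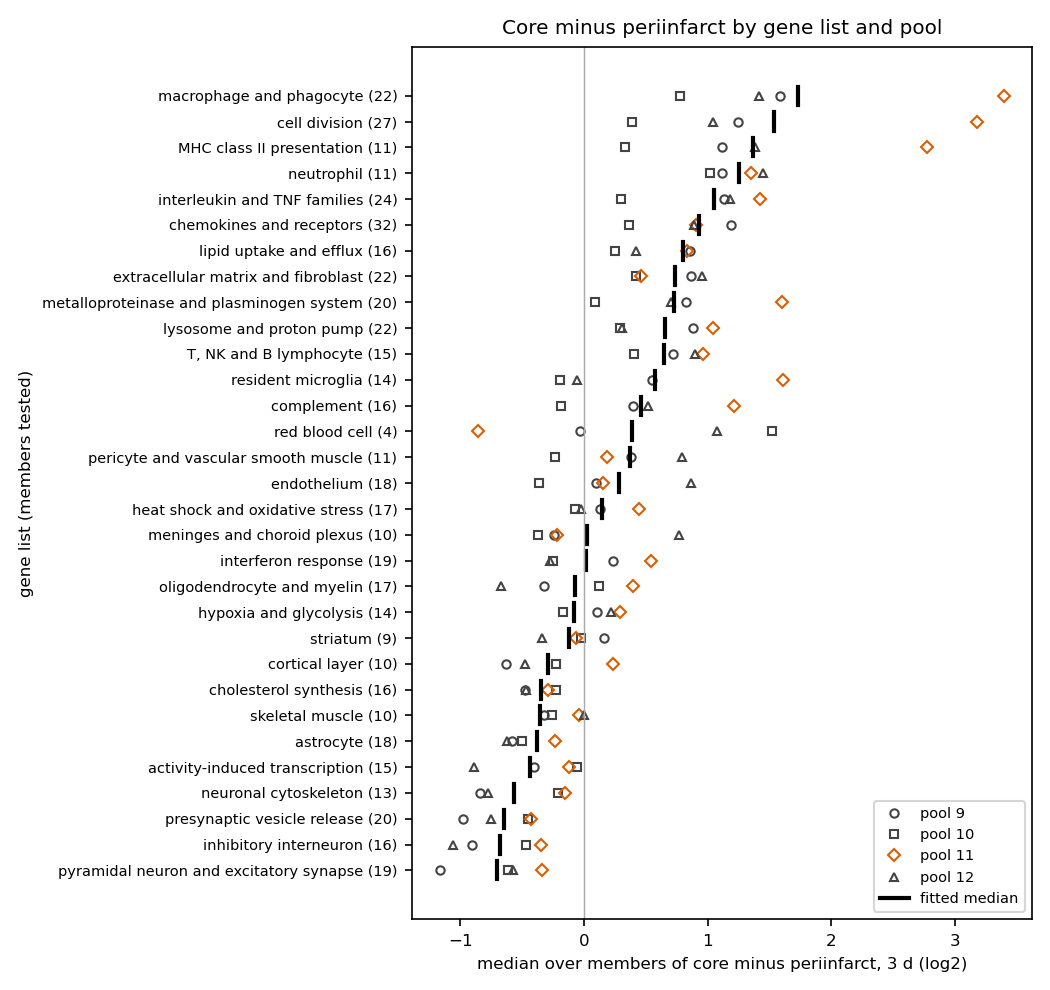
Median over the tested members of each gene list (y axis, number tested in brackets) of core minus periinfarct at 3 d on the log2 scale (x axis), for each pool (symbols, pool 11 in orange) and for the fit (black bar). Macrophage, cell division and MHC class II lists are at 3.40, 3.18 and 2.78 in pool 11 and lower in the other pools, and the 4 neuronal lists at the bottom are below 0 in each pool.

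Both areas were compared with healthy cortex to place the differences, with the healthy arrays shared by the 2 comparisons. Against healthy cortex 7361 probes were called in core and 1929 in periinfarct. For the macrophage list the median log2 difference from healthy cortex was 4.20 in core and 2.65 in periinfarct, and for cell division 4.02 and 2.68. For excitatory synapses it was −1.38 and −0.60. The interferon list had similar medians, at 1.42 and 1.48. Sham-operated cortex at 3 d and contralateral cortex lay near healthy cortex for most leading genes, as for Cd8a, whose mean log2 signal was 1.04 and 1.38, and C5ar1, with 5.95 and 5.96. Exceptions were Spp1, at 6.73 and 8.19 on average against 4.97 in healthy cortex, and Cebpe in contralateral cortex, at 2.11 against 0.95. In sham-operated cortex Cebpe was at 0.84.

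At 24 h the same areas, from other pools, differed at 41 probes, 15 of them higher in core. The difference between core and periinfarct itself differed between 3 d and 24 h for 1528 probes, 574 of them with a more positive difference at 3 d and 954 with a more negative one. At 3 d this count was 3 without core pool 9, 388 without core pool 10, 4278 without core pool 11, 984 without core pool 12, 2830 without periinfarct pool 10 and 233 without periinfarct pool 11. At 24 h it was 889 and 1016 without core pools 2 and 4, and 631 and 520 without periinfarct pools 3 and 4. With the slide as a block it was 828, and with the pool as a replicate block it was 2232. Of the genes given above, Fabp4 differed by −0.10 at 24 h and by 3.79 at 3 d (change 3.89, adjusted p = 0.0196), Cd8a by 0.29 and 3.85 (3.56, adjusted p = 0.0264) and C5ar1 by −0.03 and 2.55 (2.58, adjusted p = 0.0154). The median for presynaptic genes was 0.39 at 24 h and −0.65 at 3 d, and 12 of 20 had a called change, all more negative at 3 d (3.13% of all probes). For excitatory synapses the medians were 0.32 and −0.71 with 8 of 19 called changes, for the neuronal cytoskeleton 0.32 and −0.56 with 4 of 13, for interneurons 0.13 and −0.68 with 2 of 16, and for activity-induced genes 0.48 and −0.43 with none of 15. The positive medians at 24 h are descriptions, since no gene of the first 4 of these lists had an adjusted p below 0.05 at 24 h. Cell division genes had no called change (0.41 and 1.54). Among extracellular matrix genes 7 of 22 changed by a call, all more positive at 3 d (1.88% of all probes), with medians of −0.51 and 0.73.

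**Figure D5:**
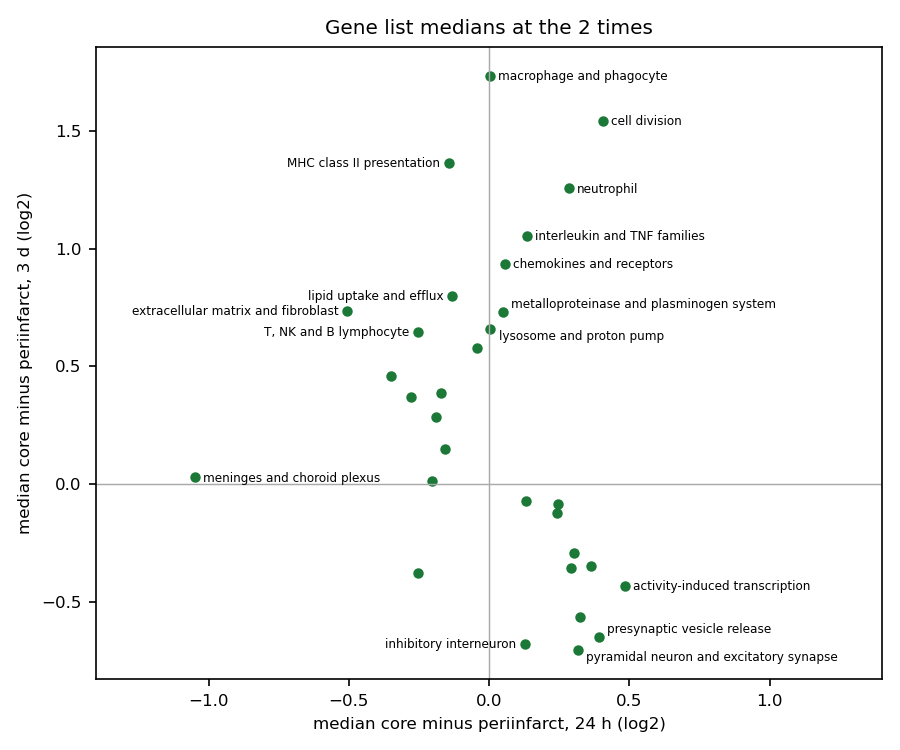
Median core minus periinfarct (log2) of each gene list at 24 h (x axis) and at 3 d (y axis), 1 point per list. The macrophage list lies at 0.00 and 1.73 and the presynaptic list at 0.39 and −0.65, so lists that are near 0 or positive at 24 h lie far apart at 3 d.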

How the data were processed

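Cy3 intensities (Agilent Whole Rat Genome arrays) were deposited by the authors as Agilent Feature Extraction 10.7.3.1 output, which per the file headers is already background-subtracted. The deposited flags per spot, a score of 0 or 1, mark spots as above background, uneven or saturated. The authors also deposited log2 values of filtered probes, quantile normalized in GeneSpring, used here as an alternative. Following the paper's methods, signals were thresholded to 1, quantile normalized over 44 arrays and taken as log2. Uneven and outlier spots were left out and spots of a probe averaged. A probe was kept where some group had 75% or more of its arrays above percentile 20 of the signal (35035 of 41012 probes), was flagged positive and significant in the same share (35958) and had a coefficient of variation above 2.5% (36981), which left 30514. Core and periinfarct were compared with limma 3.58.1 in R 4.3.3, with 1 mean per group, 33 residual degrees of freedom and Benjamini-Hochberg adjustment over all probes of a comparison.

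Symbols came from RefSeq through the probe's accession (12461 probes), an accession in the deposited table (158) or its symbol (2356), and 15539 probes had none. Named genes were the 14 largest differences in each direction among called genes whose arrays did not overlap, and from each of 31 lists the 2 highest and 2 lowest differences. The genes of interest and lists were chosen with earlier results of these data known. The bound on a fold uses, for each dim array, the lowest signal well above background or the probe's own value where higher. Symbol, promoter and motif matches are descriptions.

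The rat numbers pair the areas, since both came from the same animals. Deviations from the group means of the same pool correlated at 0.04, −0.09, 0.28 and −0.24 (mean −0.004, against 0.002 for other pairs). The 8 arrays lay on 8 of 11 slides, and no slide held both areas at 3 d, so no within-slide value exists. The fit was also run on simulated data with independent errors and the same spread in every group. That simulation cannot show whether a shared spread suits groups of unlike spread. Precision is limited by 4 pools per area. Alternatives were another scaling, normexp background correction, the deposited table, other filters, only the compared arrays, pool or slide as a block, outlier spots kept, other fold limits, arrays left out, and the mean of a gene's probes. The pool block in the 8 arrays and list counts at any fold or with arrays left out were added after the data were seen. Some genes that the naming rule gave are not reported here.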

Additional observations from a re-analysis of the deposited data

Results flagged for a closer look

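Among the 144 genes that the naming rule gave, each group of 4 arrays was searched for an array far from the other 3, by the gap to its nearest neighbour as a share of the group's range. The 288 groups gave 29 such arrays, and chance flags about 1 in 20 groups. Of these, 13 were core pool 11 and 8 were periinfarct pool 11. In core, pool 11 stood apart for Il1rn (0.955), Cnr1 (0.88), Crh (0.929), Mapt (0.852), Bdnf (0.912), Cd44 (0.88), Tyrobp (0.921), Apoc1 (0.839), Hmgcs1 (0.889), RT1-Da (0.831), Ccl2 (0.919), Ccl7 (0.834) and Il33 (0.906). In periinfarct, pool 11 stood apart for Spp1 (0.867), Acrv1 (0.95), Cd80 (0.949), Ccl2 (0.874), Ccl7 (0.91), Tpx2 (0.835), Bub1b (0.854) and Aurkb (0.953). Core pool 12 stood apart for Plat (0.934), Myh11 (0.886) and Hsp90aa1 (0.866), core pool 10 for Acrv1 (0.983) and Tmem269 (0.872), core pool 9 for Psmb8 (0.845), and periinfarct pool 10 for Acod1 (0.936) and Cfb (0.868).

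The difference between core and periinfarct changed between 24 h and 3 d, by the interaction term of the limma fit and at least 2-fold, for 26 of the 144 genes. Over all probes 1.88% changed to a more positive difference at 3 d and 3.13% to a more negative one. The 144 genes were picked by their difference at 3 d, which the interaction contains, so their count was partly set by the selection. The change, on the log2 scale, was towards higher signal in core at 3 d for Cd8a (3.56), Fabp4 (3.89), C5ar1 (2.58), Stap1 (3.35), Pdgfra (1.64), Trem2 (1.45), Tyrobp (1.40), Apoc1 (2.39), Ncf1 (2.24), Cd8b (2.84), C3ar1 (1.50), Fbn1 (1.81), Fn1 (1.70) and Aldh1a2 (2.94). It was towards lower signal in core at 3 d for Adra1a (−2.20), Plxna4 (−2.43), Tmem269 (−1.91), Robo3 (−1.23), Xkr6 (−1.32), Cnr1 (−1.14), Grin2a (−1.39), Rph3a (−1.77), Syn2 (−1.14), Scgn (−2.25), Crh (−1.63) and Cx3cl1 (−1.09). Both times come from different pools, and without core pool 9 at 3 d the test called 3 probes in all.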

How the results depend on the processing

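The 1230 calls (949 higher, 281 lower) and the 1528 probes whose difference changed between 24 h and 3 d moved by over 1.5 times with the spread estimate, the fold limit, the background correction and single arrays. The cause was not tested. In limma fits of only the 8 arrays, of the 16 core and periinfarct arrays, or of the 8 arrays with the pool as a replicate block, 0 probes were called in any direction (3387, 6034 and 5427 had an unadjusted p below 0.05), and the 16-array fit gave 0 for the change with time. With normexp 349 probes were called (330 higher, 19 lower), and 527 changed with time. With the log2 values that the authors deposited, which cover fewer probes, 181 of 20375 probes were called lower, against 281 of 30514. With no fold minimum 4593 were called (2097 higher, 2496 lower; 2678 with time) and at 4-fold 129 (124 higher, 5 lower; 176 with time). With the pool as a replicate block in all arrays 1442 were called and 2232 changed with time, 1209 of the 1230 calls remained, and of the named genes only Spp1 lost its call. As a random effect the pairing gave 1565 and 2546, and the slide as a block 1101 and 828. With the slide as a block 15 of the 54 calls of named genes were lost. Leaving out 1 array gave 111 to 3091 calls, 92 to 1769 higher, 19 to 1322 lower, and 3 to 4278 changes with time. No named gene with a call was called in the opposite direction under another setting. This covers calls only, not the sign of differences near 0. Signal over background limits the genes called lower, and 4 pools per area limit all.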
